A study of Mus musculus with 10 samples.

Results

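The genes described here encode the proteins of the mitochondrial ribosome. They were taken by symbol: every gene named Mrpl or Mrps followed by a number and annotated as protein-coding. Of 26312 genes listed, 82 had such a symbol, and 78 were protein-coding (49 Mrpl and 29 Mrps). The other 4 were processed pseudogenes and were left out. All 78 had a mean of at least 10 normalized read counts over the 10 libraries, the level from which 15180 genes were tested. The lowest member, Mrps31, had a mean of 139.6.

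RNA was measured in luminal mammary epithelial cells of C57BL/6J mice at 12 weeks of age. The cells were sorted from digested mammary glands (number 4) as EpCAM-high, CD49f-positive to low, Sca-1-positive and CD49b-negative, a gate for the hormone-sensing luminal cells. Mice were RSK2(+/+) (WT) or RSK2(-/-) (KO), where RSK2 is a kinase downstream of ERK1/2 encoded by Rps6ka3, and glands were taken in estrus or diestrus. Each genotype had 3 estrus and 2 diestrus libraries. The labels do not say how the KO allele was made or whether a library came from 1 mouse or a pool, so p-values measure the spread between libraries.

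Mitochondrial ribosomes translate the few proteins that mitochondrial DNA encodes, all of them core subunits of the respiratory chain and the ATP synthase. The ribosomal RNA comes from mitochondrial DNA, but every protein of the ribosome is made from a nuclear gene and imported. Some of these proteins have counterparts in bacterial ribosomes and others were added during the evolution of mitochondria. The genes are expressed in nearly all cell types, and NRF1, ETS-family factors such as GABP, and YY1 are known regulators of many nuclear genes for mitochondria.

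The members lie on 17 chromosomes, and their promoters were searched for sequence cores of NRF1, ETS factors and YY1. Whether promoters have a part in the differences between the groups was not tested. RefSeq windows of GRCm38.p6, from 250 bases before to 50 bases after the start, matched 69 of the 78 members (75 windows). Cores were searched on both strands: GCGCATGC for NRF1, CCGGAAGT for ETS factors and AAGATGGC for YY1. At least 1 core was present in 38.7% of the member windows, against 16.4% of the windows of tested protein-coding genes and 8.83% of all 32851 windows. NRF1 cores were in 10.7% of member windows, against 5.14% for tested coding genes and 2.71% of all windows. For ETS cores the shares were 16%, 8.09% and 3.89%, and for YY1 cores 16%, 4.41% and 2.75%. A match describes the letters and is not a binding site. Windows of 3 members that rose from diestrus to estrus in KO are printed 5' to 3' on the gene's strand, with the matched cores in capitals. Mrpl42 has a YY1 core (chr10:95501900-95502199, minus strand), Mrpl33 an NRF1 and an ETS core that do not overlap (chr5:31613701-31614000, plus strand) and Mrpl18 an ETS core (chr17:12916042-12916341, minus strand).
Mrpl42: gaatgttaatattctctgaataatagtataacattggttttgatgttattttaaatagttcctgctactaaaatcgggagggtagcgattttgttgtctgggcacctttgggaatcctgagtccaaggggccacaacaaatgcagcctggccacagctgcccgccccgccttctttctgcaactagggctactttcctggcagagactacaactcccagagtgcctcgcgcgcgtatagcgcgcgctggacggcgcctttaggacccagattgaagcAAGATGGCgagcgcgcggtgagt
Mrpl33: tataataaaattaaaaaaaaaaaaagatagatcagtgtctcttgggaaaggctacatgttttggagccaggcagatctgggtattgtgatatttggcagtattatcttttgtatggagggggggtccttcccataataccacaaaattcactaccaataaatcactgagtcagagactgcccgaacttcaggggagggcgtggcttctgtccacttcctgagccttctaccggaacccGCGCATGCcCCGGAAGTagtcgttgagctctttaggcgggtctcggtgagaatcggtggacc
Mrpl18: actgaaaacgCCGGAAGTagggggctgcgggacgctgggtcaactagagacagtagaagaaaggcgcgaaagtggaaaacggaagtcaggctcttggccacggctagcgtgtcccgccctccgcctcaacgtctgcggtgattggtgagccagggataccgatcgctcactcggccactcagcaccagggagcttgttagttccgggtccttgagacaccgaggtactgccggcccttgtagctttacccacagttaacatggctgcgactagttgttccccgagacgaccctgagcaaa
Of the 28 windows of members that rose from diestrus to estrus in KO 32.1% held a core, and of the 47 windows of the other members 42.6% did. Neither Mrpl34 nor Mrps21, the members with the largest rises, had a match in its window.

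The libraries held 14108057 to 15307238 normalized counts in all, spread over 20831 to 22122 genes with a value above 0. Rps6ka3 was not lower in KO. It had 158, 156 and 164 normalized counts in KO estrus against 136, 128 and 137 in WT estrus, and 156 and 165 in KO diestrus against 165 and 139 in WT diestrus. A count over the whole gene does not check a disrupted allele, and the titles of the KO libraries also contain "WT", so KO means the libraries labelled RSK2(-/-). Of 10 hormone-sensing luminal markers 9 had a mean of at least 10, among them Prlr at 26088 to 48303 counts and Esr1 at 1468 to 3334. Markers of other cells were uneven within their lists. Adgre1 of macrophages had 0 to 5 counts, Kdr of endothelium 0 to 3 and Trp63 of basal cells 2 to 10. Other genes of the same lists were well above 0, with 187 to 278 counts for Csf1r and 32 to 436 for Cd74 among the macrophage markers, 494 to 1291 for the endothelial Vwf and 108 to 903 for the basal Krt14. In this bulk RNA, fewer cells of a type and less RNA per cell cannot be told apart.

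The mitochondrial ribosomal protein genes were highest in the KO estrus libraries. Together they made up 0.336%, 0.315% and 0.321% of all normalized counts in KO estrus 1, 2 and 3. Their share was 0.281%, 0.238% and 0.263% in WT estrus, 0.259% and 0.233% in WT diestrus, and 0.241% and 0.238% in KO diestrus. In this share every KO estrus library lay above every other library, and the other 3 groups overlapped. KO estrus had the highest group mean for 66 of the 78 genes and KO diestrus the lowest for 49. The mean log2 level of the members, relative to each gene's mean over the 10 libraries, was 0.23 ± 0.07 in KO estrus (SD, n = 3), -0.03 ± 0.12 in WT estrus (n = 3), -0.11 ± 0.06 in WT diestrus (n = 2) and -0.20 ± 0.02 in KO diestrus (n = 2). On this scale both KO diestrus libraries (-0.1865 and -0.2116) lay below every other library. Large and small subunit genes ran alike, with means of 0.24 and 0.21 in KO estrus and -0.19 and -0.21 in KO diestrus. For the small subunit the lowest KO estrus library had 0.134, close to 0.1305 in WT estrus 1.

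**Figure D1:**
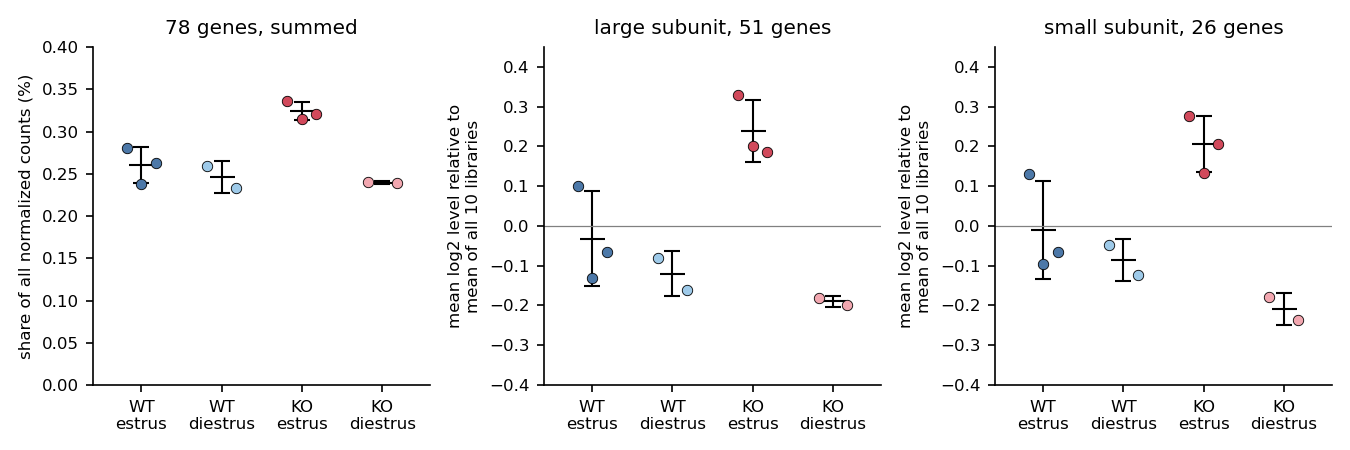
Share of all normalized counts taken by the 78 genes (left, percent) and mean log2 level of the 51 large subunit and 26 small subunit genes relative to the mean of all 10 libraries (middle and right). Points are libraries, the horizontal line of each group is its mean and the error bars are 1 SD; the 3 KO estrus libraries lie above all others in each panel, at 0.315% to 0.336% in the left one.

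Levels between genes were compared per kilobase of the annotated reference transcript. On that scale Mrpl33 stood highest with a mean of 2303 normalized counts per kilobase, before Mrpl52 with 2080, Mrpl14 with 1282 and Mrpl23 with 1270. These encode proteins of the large subunit. Lowest were Mrps25 with 54.9, Mrps35 with 55.2, Mrpl1 with 67.1 and Mrpl19 with 74.8, and their annotated transcripts are long (3556 to 6073 bases), so the annotated length sets part of this order. The median member transcript had 1302 bases, against 2931 for tested protein-coding genes, at a median GC content of 50.4% and 50.7%.

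In KO cells the members were higher in estrus than in diestrus. The median log2 difference was 0.42 (1.34-fold), against -0.01 for all genes tested, and 70 of the 78 were above 0. At an adjusted p under 0.05 (limma, two-sided, Benjamini-Hochberg over all 15180 genes), 27 of 78 rose and 0 fell, and 49 had an unadjusted p under 0.05. Over all genes 7.67% were called higher and 8.95% lower in this comparison. In 58 members every KO estrus library lay above every KO diestrus library, which held for 25.0% of all genes.

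The largest rise was that of Mrpl34 (ENSMUSG00000034880, GRCm38 chromosome 8, 71464959 to 71465747), the mitochondrial counterpart of bacterial L34. Mrpl34 had 309, 288 and 178 normalized counts in KO estrus, 66 and 81 in KO diestrus, 142, 143 and 146 in WT estrus and 119 and 88 in WT diestrus. Its lowest KO estrus library was above every library of the other groups. The log2 difference between the stages in KO was 1.77 ± 0.26 (SE, limma adjusted p = 0.00459).

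Mrpl18 (ENSMUSG00000057388, chromosome 17, 12911349 to 12916345), with the ETS core in its promoter window, encodes the counterpart of bacterial L18. Its counts were 376, 387 and 375 in KO estrus against 196 and 179 in KO diestrus, with 320, 255 and 295 in WT estrus and 291 and 278 in WT diestrus between them. The stage difference in KO was log2 1.01 ± 0.16 (limma adjusted p = 0.00572). Mrpl18 shares exon sequence with Tcp1 on the genome, and whether counting used the strand is not given in the sources used here.

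Mrpl42 (ENSMUSG00000062981, chromosome 10, 95480805 to 95501940), a large subunit protein without a bacterial counterpart, had 690, 620 and 682 counts in KO estrus and 308 and 350 in KO diestrus. WT libraries ran from 377 to 538, between the KO stages. The log2 difference was 1.01 ± 0.17 (limma adjusted p = 0.00584).

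Other large subunit genes that rose were Mrpl36 (log2 0.82 ± 0.16), Mrpl33 (0.79 ± 0.19) and Mrpl28 (0.71 ± 0.17), counterparts of the bacterial proteins of the same numbers, and Mrpl57 (0.76 ± 0.14) and Mrpl53 (0.73 ± 0.17), which have none. Mrpl33, the most abundant member per kilobase, had 1858, 1213 and 1199 counts in KO estrus and 821 and 794 in KO diestrus. KO estrus 1 stood above the other libraries of its group here, and it was the highest library for 37 of the 78 members. Mrpl12, whose product forms the flexible stalk that receives translation factors, had 603, 561 and 613 counts in KO estrus and 385 and 346 in KO diestrus (log2 0.70 ± 0.17, limma adjusted p = 0.0207). In all, 15 of 51 large subunit genes rose (11 of 30 with a bacterial counterpart, 4 of 21 without), with a median log2 difference of 0.41.

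Among the 26 small subunit genes 11 rose, with a median of 0.48. Mrps21 (ENSMUSG00000054312, chromosome 3, 95862634 to 95871519), the counterpart of bacterial S21, had 887, 699 and 689 counts in KO estrus against 362 and 368 in KO diestrus. All KO estrus values were above the 506 to 520 counts of WT estrus and the 443 and 363 of WT diestrus. The stage difference in KO was log2 1.04 ± 0.16 (limma adjusted p = 0.00521). Mrps16, Mrps15 and Mrps11, also of bacterial origin, rose by log2 0.97 ± 0.18, 0.94 ± 0.16 and 0.92 ± 0.18. Mrps34 and Mrps33, which have no bacterial counterpart, rose by 0.83 ± 0.15 and 0.79 ± 0.15. Mrps12, whose product lies at the decoding centre, rose by 0.58 ± 0.16 (limma adjusted p = 0.0331).

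The 3 Mrps18 paralogs encode proteins at different places of the ribosome. Mrps18c, the small subunit counterpart of bacterial S18, had a stage difference in KO of log2 0.51 ± 0.18 (limma adjusted p = 0.0719). Mrps18a, now placed in the large subunit, had 0.41 ± 0.15 (adjusted p = 0.0861, limma). Mrps18b, a small subunit protein, had -0.09 ± 0.16, with 1045, 964 and 1124 counts in KO estrus and 1097 and 1123 in KO diestrus. The difference between the paralogs was not tested.

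Some members have a role apart from the structure of the ribosome or belong elsewhere. Mrpl58, a peptidyl-tRNA hydrolase built into the large subunit, had log2 0.56 ± 0.18 (limma adjusted p = 0.0583), and Mrps30, in the large subunit despite its name, 0.01 ± 0.14. Mrps36 keeps its ribosomal symbol, but its product is now known as a subunit of the 2-oxoglutarate dehydrogenase complex. Its counts were 334, 303 and 220 in KO estrus against 122 and 169 in KO diestrus (log2 0.97 ± 0.23, limma adjusted p = 0.0177). A pseudogene, Mrps36-ps1, with a mean of 35.3 counts against 204.1 for Mrps36, could share reads with it.

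A few members had lower values in estrus without passing the test in the fit reported here. Mrpl50, a large subunit protein without a bacterial counterpart, had 207, 263 and 273 counts in KO estrus, all below the 354 and 375 of KO diestrus (log2 -0.57 ± 0.18, limma adjusted p = 0.0502). Mrpl50 was called lower in 6 of the alternative fits, with a mean of at least 50, trimmed mean scaling, library weights, the replicate block, and without WT estrus 1 or KO estrus 3. Mrps31 had -0.39 ± 0.26 and Mrps22 -0.18 ± 0.17, both in the small subunit.

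**Figure D2:**
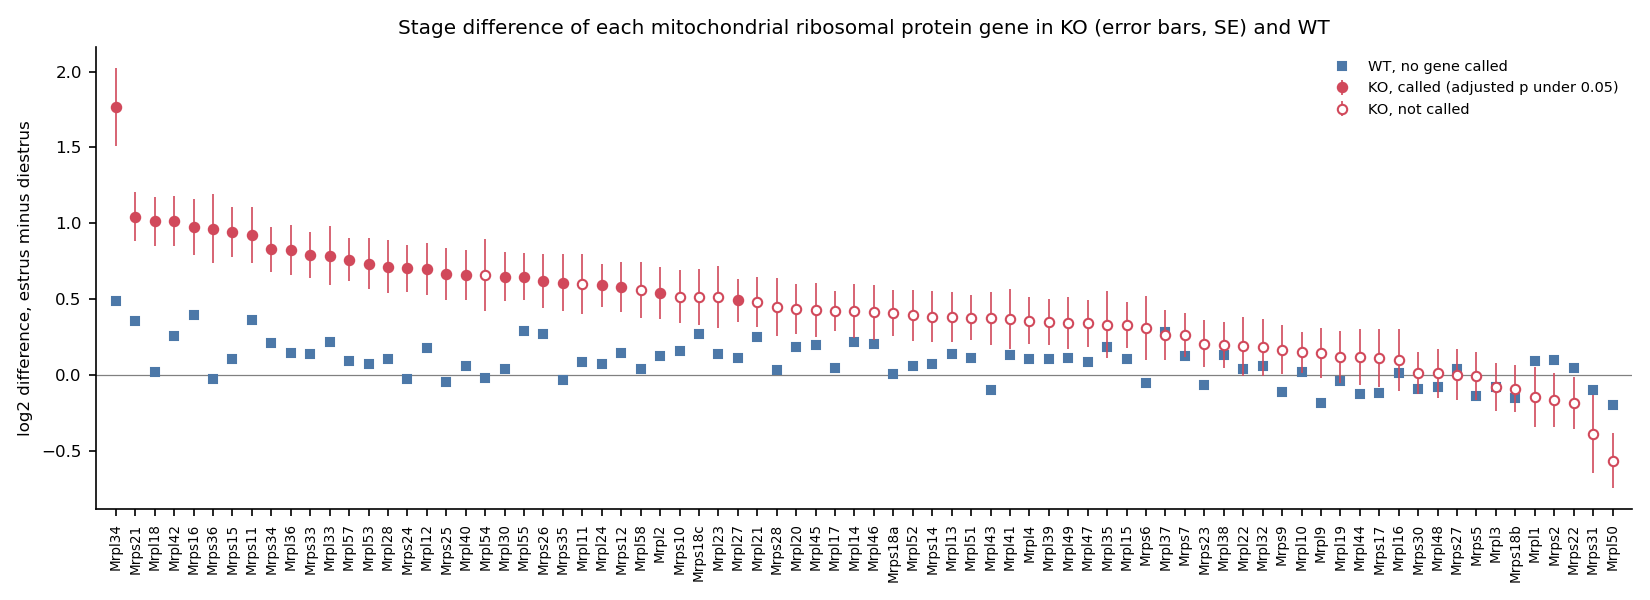
Log2 difference between estrus and diestrus for each of the 78 genes in KO (circles with SE, filled where called) and in WT (squares), ordered by the KO value. The KO values run from 1.77 for Mrpl34 to -0.57 for Mrpl50, and no WT value is called.

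These calls depended on single libraries. Without KO diestrus 1 the count was 1 (Mrpl18) and without KO diestrus 2 it was 0 (limma), where calls over all genes also fell from 2524 to 151 and 39. It was 17 without KO estrus 1. All 27 log2 differences stayed above 0 in each of these fits. Exon sequence shared with another coding gene concerned 23 members, of which 9 were called, against 18 of the 55 others.

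In WT cells no member differed between the stages at adjusted p under 0.05 (limma, 0 of 78, with 1 at unadjusted p under 0.05), and the background was likewise 0%. The median log2 difference was 0.09, with 58 of 78 above 0. The largest values were those of Mrpl34 at 0.49, Mrps16 at 0.40 and Mrps11 at 0.36, and the smallest those of Mrpl50 at -0.20, Mrpl9 at -0.19 and Mrps18b at -0.15. Mrps16, the counterpart of bacterial S16, had 310, 259 and 325 counts in WT estrus and 240 and 211 in WT diestrus, without overlap.

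Whether the stage difference itself differed between the genotypes was tested as an interaction. No member passed (limma, 0 of 78, smallest adjusted p = 0.213 for Mrpl18, with 19 at unadjusted p under 0.05), and 0% of all genes were called. The median interaction was 0.32, and 71 of 78 values were above 0. The largest were 1.28 ± 0.36 for Mrpl34, 0.99 ± 0.32 for Mrps36 and 0.99 ± 0.23 for Mrpl18, and the smallest -0.37 for Mrpl50, -0.29 for Mrps31 and -0.26 for Mrps2. In 15 members every KO library lay above every WT library at estrus and below every WT library at diestrus, against 2.71% of all genes. Mrpl34, Mrpl18, Mrpl42, Mrps15 and Mrpl57 were among these 15.

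**Figure D3:**
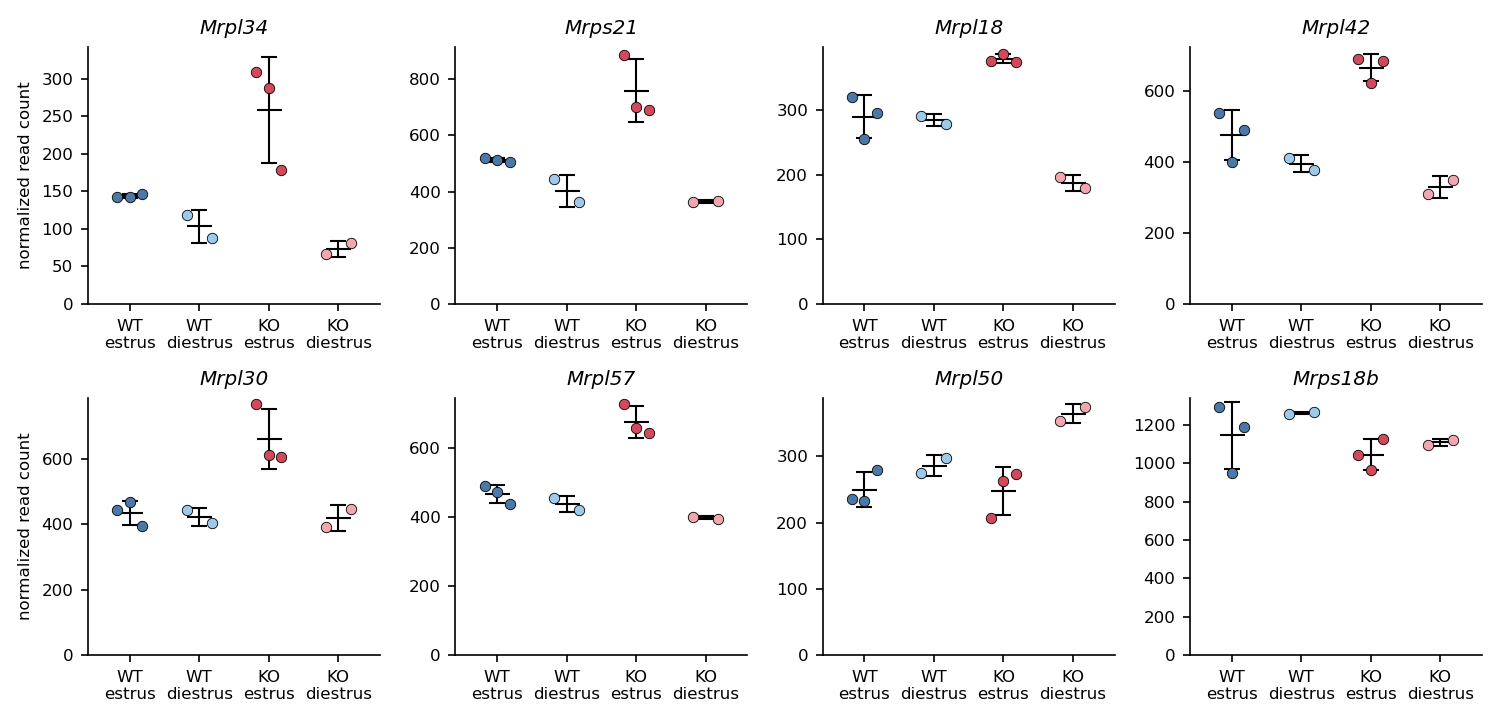
Normalized read counts per library of 8 members in the 4 groups (points), with the group mean and SD (bars), each axis starting at 0. In Mrpl18 and Mrpl42 the KO estrus libraries are above and the KO diestrus libraries below all WT libraries, Mrpl50 is highest in KO diestrus, and Mrps18b runs between 950 and 1295 over all groups.

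Between the genotypes at estrus the members were higher in KO by a median log2 difference of 0.27 (1.21-fold), against -0.01 for all genes. Of the 78 genes 66 were above 0, and 29 had an unadjusted p under 0.05. At adjusted p under 0.05 (limma) 2 of 78 were called higher and 0 lower, where 1.26% of all genes were called higher and 2.94% lower. The share of calls was thus near the background. In 33 members every KO library lay above every WT library, against 12.9% of all genes. This comparison and that of the stages in KO share the KO estrus libraries.

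The called members were both of the large subunit. Mrpl30 (ENSMUSG00000026087, chromosome 1, 37890477 to 37898535), the counterpart of bacterial L30, had 767, 613 and 605 counts in KO estrus against 443, 468 and 394 in WT estrus (log2 0.60 ± 0.15, limma adjusted p = 0.0453). Mrpl57 (ENSMUSG00000021967, chromosome 14, 57826234 to 57829296) had 728, 657 and 642 against 490, 471 and 437 (log2 0.53 ± 0.13, limma adjusted p = 0.0418). In both genes the groups did not overlap. At diestrus Mrpl30 had 392 and 448 counts in KO and 443 and 403 in WT, and Mrpl57 401 and 395 in KO and 454 and 420 in WT.

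Both calls were close to the threshold. Neither was kept when KO estrus 1, KO estrus 2, WT estrus 2, WT estrus 3 or a single diestrus library was left out, and without WT estrus 1 that of Mrpl57 was kept and that of Mrpl30 was not. Without WT estrus 1 or without KO estrus 3 the count of called members was 6. Calls over all genes moved too, from 637 to 799 without WT estrus 1 and 909 without KO estrus 3. They fell to 73 without KO estrus 1, 552 without KO estrus 2 and 67 without WT estrus 2 or WT estrus 3. WT estrus 1 had the highest member level of its group (mean log2 level 0.11, against -0.12 and -0.07).

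Mrpl34 had the largest difference at estrus without passing the test (log2 0.80 ± 0.23, limma adjusted p = 0.0625). Mrps36 followed with 0.67 ± 0.20, Mrps16 with 0.59 ± 0.16, Mrpl54 with 0.57 ± 0.21 and Mrpl23 with 0.56 ± 0.18. Mrpl54 and Mrpl23 encode large subunit proteins. Mrpl23 had 1381, 1059 and 1006 counts in KO estrus against 990, 698 and 657 in WT estrus. A processed pseudogene of Mrpl23 had a mean of 223.8 counts and a difference of 0.47, and reads of the pair may be split between them. At the lower end stood Mrps22 at -0.17, Mrps31 at -0.16, Mrpl1 at -0.13, Mrps18b at -0.12, Mrps2 at -0.06 and Mrpl3 at -0.04. The signs of Mrps31, Mrpl1, Mrps2 and Mrpl3 turned under at least 1 other fit.

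At diestrus the members leaned to lower values in KO and none was called (limma, 0 of 78 at adjusted p under 0.05, 3 at unadjusted p under 0.05, where 0.0395% of all genes were called). The median was -0.09, and 24 of 78 were above 0. Mrpl18 at -0.60, Mrps15 at -0.56 and Mrps35 at -0.53 had the lowest values, and Mrpl50 at 0.35, Mrpl14 at 0.26 and Mrpl13 at 0.22 the highest. Mrps15, the counterpart of bacterial S15, had 263 and 245 counts in KO diestrus and 381 and 370 in WT diestrus. Averaged over both stages, 0 of 78 were called (limma, 6 at unadjusted p under 0.05) against 0.665% of all genes, and the median was 0.09.

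Short transcripts stood at different levels in these libraries. For each doubling of the transcript's length, values of all genes changed by -0.123, -0.0341 and -0.0843 on the log2 scale in KO estrus 1, 2 and 3, relative to the mean of the 10 libraries. The slopes were -0.0281, 0.0392 and 0.0282 in WT estrus, 0.0361 and 0.0441 in WT diestrus and 0.0615 and 0.0605 in KO diestrus. Among the members, Pearson's r between log2 transcript length and the log2 difference was -0.44 for KO against WT at estrus and -0.39 for the stages in KO (Spearman's rho -0.50 and -0.47, a description across 78 genes that share the same libraries). For the stages in KO 14 of the 26 shortest, 8 of the 26 middle and 5 of the 26 longest members rose, with medians of 0.61, 0.35 and 0.34.

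After removal, library by library, of the trend on length and GC content, 15 members were called between the stages in KO, 11 of them among the 27, and the median was 0.29. In that fit 560 of 15146 genes were called higher. For KO against WT at estrus the median was 0.15 and Mrpl57 was the 1 called member.

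**Figure D4:**
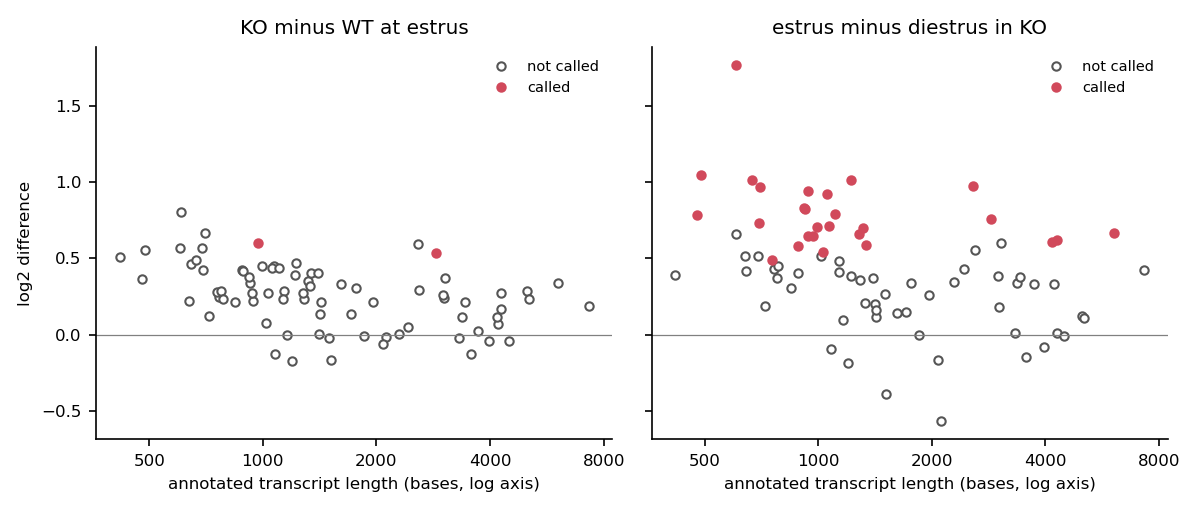
Log2 difference of each of the 78 genes against its annotated transcript length (bases, log axis), for KO minus WT at estrus and for estrus minus diestrus in KO, filled where called. In the right panel all 26 of the shortest members are above 0, and the members below 0 have transcripts of 1079 bases or more.

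Markers of other cell types also differed between the groups, and their part in the result was not tested. Summed over 8 macrophage markers, 5 of them with a mean of at least 10, counts were 579 to 816 in KO estrus, 432 to 436 in KO diestrus, 321 to 610 in WT estrus and 567 to 635 in WT diestrus. Of these 5, C1qb and Cd74 rose from KO diestrus to KO estrus (limma), and 2 had a difference below 0. Csf1r had 187, 189 and 205 counts in KO estrus against 236 and 234 in KO diestrus. Cd68 had 123, 53 and 131 against 134 and 115. Lymphocyte markers (1 of 8 with a mean of at least 10) summed to 147 to 198, 89 to 104, 62 to 104 and 114 to 136 in the same order, and Trbc2 of T cells was higher in KO at estrus (log2 1.13, limma adjusted p = 0.0276). Basal markers (6 of 8) ran from 569 to 1223 in KO estrus, 430 to 843 in KO diestrus, 600 to 2077 in WT estrus and 546 to 889 in WT diestrus. Fibroblast markers (2 of 7), mostly counts of Dcn, ran from 108 to 3101, 101 to 118, 654 to 1616 and 588 to 651.

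Luminal progenitor markers (7 of 7) summed to 3140 to 5012 in KO estrus, 3748 to 3827 in KO diestrus, 3412 to 4399 in WT estrus and 2405 to 4604 in WT diestrus. Endothelial markers (2 of 6) summed to 613 to 1333, 547 to 575, 582 to 975 and 608 to 676 in the same order, adipocyte markers (1 of 5) to 5 to 25, 0 to 24, 12 to 31 and 4 to 55, and erythroid markers (3 of 6) to 139 to 357, 313 to 450, 53 to 421 and 58 to 132. The hormone-sensing markers summed to 104175 to 108099, 75443 to 84113, 90711 to 121362 and 92445 to 107343, lowest in KO diestrus. Prlr, Ly6a and Areg had the highest means of these markers. Of the 9 tested, 2 were called higher and 1 lower in KO estrus than in KO diestrus (limma), and 4 differences were below 0. Prom1 had 12984 and 13432 counts in KO diestrus against 2191, 3414 and 9671 in KO estrus.

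Genes with which the members work were compared with the shares called over all genes between the stages in KO (7.67% higher and 8.95% lower). Between the stages in KO, 2 of 5 mitoribosome proteins with other symbols rose, the small subunit proteins Chchd1 (log2 0.73 ± 0.17) and Aurkaip1 (0.61 ± 0.14), while Ptcd3, also of the small subunit, had -0.45. None of 15 mitochondrial translation factors was called (limma, 4 at unadjusted p under 0.05, median 0.14). Tufm, the elongation factor that brings aminoacyl-tRNA to the ribosome, had 1050, 1133 and 1087 counts in KO estrus and 864 and 683 in KO diestrus (adjusted p = 0.0624, limma), and Slirp, which binds mitochondrial messengers, a difference of 0.34 ± 0.15.

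Of 26 genes for assembly of the ribosome and modification of its RNA, 4 rose and 1 fell, with a median of 0.03. The GTPases Mtg2 (0.79 ± 0.19) and Mtg1 (0.60 ± 0.17) and the protease subunit Clpp (0.61 ± 0.18) rose, and Gtpbp10, another GTPase of large subunit assembly, fell by 0.73 ± 0.20 on the log2 scale. Of 20 genes for mitochondrial aminoacyl-tRNA synthesis, the amidotransferase genes Gatc (0.78 ± 0.23) and Gatb (0.67 ± 0.19) rose (median 0.05), a share near that of all genes. In mitochondrial transcription and DNA maintenance 1 of 10 rose (Top1mt, a topoisomerase, 0.89 ± 0.27) and the transcription factor gene Tfb2m fell by 0.60 ± 0.14 (median -0.19), shares that are also near those of all genes. None of the 3 genes for membrane insertion of the products was called (limma, 1 at unadjusted p under 0.05), and Oxa1l, the insertase, had 0.40 ± 0.14 and Letm1 -0.27 ± 0.16.

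Lists for the respiratory chain and the cytosolic ribosome were compared in the same way. Of 79 nuclear oxidative phosphorylation genes 55 rose between the stages in KO (median 0.62), among them Uqcr11 of complex III at 1.01 ± 0.20 and Ndufa7 of complex I at 0.99 ± 0.24. None of the 13 protein genes of mitochondrial DNA was called (limma, 1 at unadjusted p under 0.05), with a median of 0.54 and mean log2 levels of 1.002, 0.22 and -0.44 in KO estrus 1, 2 and 3. Of 78 cytosolic ribosomal protein genes 11 rose (median 0.56). Their mean levels were 0.91, 0.35 and 0.04 in these libraries, where the mitochondrial ribosomal proteins had 0.32, 0.18 and 0.19. At estrus the medians of KO against WT were 0.69 for the cytosolic ribosomal, 0.43 for the oxidative phosphorylation and 0.27 for the mitochondrial ribosomal protein genes. In the same order 12 of 78, 4 of 79 and 2 of 78 were called, all higher, where 1.26% of all genes were called higher and 2.94% lower. Differences between the lists were not tested. The lists also differ in transcript length. Median lengths are 784 bases for mitochondrially encoded, 861 for oxidative phosphorylation, 869 for cytosolic ribosomal and 1302 for mitochondrial ribosomal protein genes. Assembly genes have a median of 2138 bases, translation factors 2623 and tRNA synthetases 2868. The part of length in the order of these lists was not tested.

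**Figure D5:**
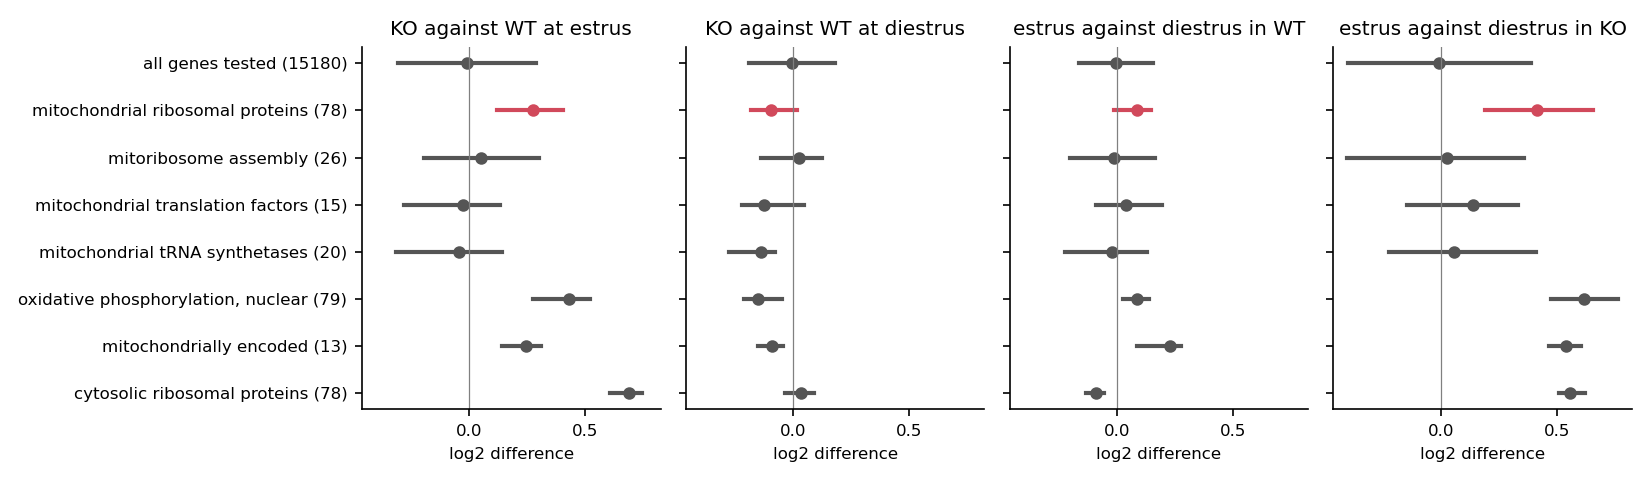
Median (points) and interquartile range (bars) of the log2 differences of the mitochondrial ribosomal protein genes, related lists and all genes tested, in 4 comparisons (number of genes in brackets). In KO between the stages the median of the mitochondrial ribosomal protein genes is 0.42, between 0.03 for assembly genes and 0.62 for oxidative phosphorylation genes.

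Genes of the regulators whose cores were searched in the promoters were measured too. Of 10 regulators of nuclear genes for mitochondria, Yy1 was higher in KO at estrus (log2 0.77, limma adjusted p = 0.0456) and Gabpb1, a subunit of GABP, was lower (-0.58, limma adjusted p = 0.0453). The shares over all genes were 1.26% higher and 2.94% lower. Both calls were close to the threshold, and these regulators were not followed through the alternative fits. Calls over all genes in this comparison ran from 23 with the compared groups alone to 996 with the replicate block, against 637 in the reported fit. Between the stages in KO, Gabpb1 (-0.63 ± 0.16) and the coactivator gene Pprc1 (-0.69 ± 0.14) fell, where 8.95% of all genes were called lower. Nrf1 had 380, 512 and 491 counts in KO estrus and 652 and 577 in KO diestrus (adjusted p = 0.0931, limma).

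Some members start close to a neighbour on the opposite strand. Counting coding neighbours that start within 1000 bases and point away, with at most 200 bases of overlap, there was one for 23 of the 78 members (29.5%), against 12.4% of 12320 tested coding genes. Of those 23 members 8 rose between the stages in KO (34.8%), and of the 55 others 19 did (34.5%). Mrpl36 lies head to head with the complex I gene Ndufs6, which rose by 0.77 (limma adjusted p = 0.0177), against 0.82 for Mrpl36. Mrpl36 and Ndufs6 share exon bases. If counting ignored the strand, both counts may depend on how reads from those bases were assigned. The same holds for Mrpl44 and Wdfy1. Mrpl44, an RNase III-like protein of the large subunit, lies head to head with Wdfy1. Wdfy1 rose in KO at estrus by log2 1.45 (limma adjusted p = 0.0207) and Mrpl44 had 0.21 ± 0.17. The members Mrps11 and Mrpl46 overlap each other by more than 200 bases at their starts on chromosome 7 and are not among the 23. They also share exon bases, and their stage differences in KO were 0.92 ± 0.18 and 0.41 ± 0.18, the latter not called.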

How the data were processed

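RNA of 10 libraries was sequenced. Per the submitters' processing notes, STAR, HTSeq and DESeq2 were used with mm10. Versions, strand setting and annotation release are not given in the sources used here. What the authors deposited is treated as a score: whole numbers, rounded by them from read counts after normalization and not divided by length. No count model was therefore run.

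Values were taken as log2(value + 1). limma 3.58.1 (R 4.3.3) estimated the 4 group means of each gene from the 10 libraries, letting the spread follow the level. It covered 15180 genes with a mean of at least 10 in 6 two-sided contrasts. Benjamini-Hochberg adjustment ran across all of these genes, with calls at 0.05. Groups of 2 libraries borrow the spread of the others. The fit was tested on simulated data.

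Symbols (26249 of 26312 genes), positions and transcript lengths came from GENCODE M21 (GRCm38), using the longest APPRIS principal transcript. Python 3.11.15 with matplotlib 3.10.9 drew the figures.

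Named genes are the called members (at most 15 per contrast, by size), the 6 largest and 6 smallest differences for KO against WT at estrus and the 3 largest and 3 smallest otherwise, the 4 highest and 4 lowest per kilobase, paralogs and members with a role of their own, and at most 4 genes per other list. Mrpl44, Mrpl46, Wdfy1, Ndufs6, Ptcd3, Nrf1, the Mrpl23 pseudogene and single markers were named after their values were seen. The members and lists were chosen with earlier results of these data known. Alternatives were other pseudocounts, filters, scalings and spread models, a block for the replicate number, fits of only the compared groups, removal of the length and GC trend, and each library left out in turn.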

Additional observations from a re-analysis of the deposited data

How the results depend on the processing

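The medians of the members kept their sign in every alternative run: 0.15 to 0.35 for KO against WT at estrus, 0.29 to 0.50 for the stages in KO and 0.21 to 0.39 for the interaction, the lowest value in each case with the length and GC trend removed (0.15, 0.29 and 0.21). The 2 members called for KO against WT at estrus became 0 without a filter on low values, without a trend of the spread, with library weights or with the compared groups alone, 1 with the length and GC trend removed, 6 with quantile normalization and 4 where the mean had to reach 50 (limma, 29 at unadjusted p under 0.05 in the reported fit). With 1 estrus library left out they were between 0 and 6. Over all genes the reported fit called 637 of 15180. Without the filter 89 of 26312 were called, without a trend of the spread 44, with library weights 229 and with the compared groups alone 23. With the length and GC trend removed it was 169 of 15146, with quantile normalization 820 and at a mean of 50 it was 854 of 11914. The 27 called between the stages in KO became 15 with the length and GC trend removed, and between 0 and 34 when any single library was left out. The cause was not tested.

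Of uncalled differences of KO against WT at estrus, Mrpl1 turned to 0.13 and Mrpl3 to 0.19 with the length and GC trend removed, and Mrpl3 to 2e-04 with equal totals. With 1 library left out, Mrps31 lay between -0.3584 and 0.0176 (above 0 without KO estrus 3), Mrpl1 between -0.2518 and 0.0511 (above 0 without WT estrus 3), Mrps2 between -0.1486 and 0.0455 (above 0 without WT estrus 2 or KO estrus 2) and Mrpl3 between -0.1049 and 0.0075 (above 0 without WT estrus 3 or KO estrus 3).

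Libraries share replicate numbers across groups. Deviations of same-numbered WT and KO estrus libraries from their group means had r from 0.031 to 0.187, and those of differently numbered ones from -0.147 to 0.079. In groups of 2 libraries the deviations mirror each other, so the diestrus value (-0.036) is no separate check. These values cannot decide whether the numbers mark a pairing, and the reported fit did not use one. With the replicate block 3 members were called for KO against WT at estrus and 31 between the stages in KO (30 higher and 1, Mrpl50, lower), 26 of them among the 27. Over all genes this fit had 996 and 2608 calls, against 637 and 2524 in the reported fit. The compared groups alone were not run for the averaged contrast and the interaction, which use all groups. The groups of 2 and 3 libraries limit these counts.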
